A study of Mus musculus with 6 samples.

Results

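The 39 genes described here encode the proteins that copy DNA in S phase and the regulators that carry cells from G1 into S phase. They were chosen by name: a gene entered where its symbol in the deposited table equalled 1 of 39 listed names, and all 39 were found among the 17564 genes of the table. RNA was sequenced from whole back skin of wild-type C57BL/6 mice, 8 weeks old and kept free of specific pathogens, in 3 untreated samples (U1, U2 and U3) and 3 treated samples (T1, T2 and T3). The back skin of both groups was shaved and depilated. Treated skin then received a topical dose of 3 µg SspA, the V8 protease of staphylococci, together with 10 µg HDM, house dust mite extract by the title of the series. The same dose was given again 3 days later, and skin was collected 7 days after the first dose. The labels describe swelling, excess growth of the epidermis and infiltrating immune cells at the treated site. They give no collection day for untreated skin. Nothing in them ties the 3 samples of either group to different mice, so a p-value reflects sample-to-sample spread alone, and that spread may be technical.

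Before S phase, the origin recognition complex, Cdc6 and Cdt1 load the MCM2 to MCM7 helicase onto DNA, which licenses the origin. Cyclin E with its kinase, and the Dbf4-dependent kinase, then switch the helicase on with the help of Mcm10, Cdc45 and the GINS complex, and DNA polymerases, the sliding clamp and ligase follow. Many of these genes are targets of E2F transcription factors, which the RB proteins restrain in resting cells. In skin, dividing cells are found mainly in the basal epidermis and, during hair growth, in the hair matrix.

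Of the 39 genes, 18 were higher in treated than in untreated skin and 0 were lower at an adjusted p under 0.05 (limma on log2 of the scaled reads plus 1). Over all 15534 genes tested, 9.26% were called higher and 7.23% lower. At an unadjusted p under 0.05, 30 of the 39 were higher and 0 lower, against 18.2% and 13.2% of all genes tested, and edgeR and DESeq2 also called 0 lower. The largest called changes were in Orc1, the large subunit of the origin recognition complex (2.02-fold), and Exo1, a DNA exonuclease (1.95-fold). The change was small for most of the genes: the median log2 fold change was 0.49 over the 39 genes and 0.03 over all genes tested, and 37 of the 39 fold changes were positive. Pcna, the sliding clamp, and E2f2, an E2F factor, had the 2 negative fold changes.

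The summed level of the 39 genes was 9450 scaled reads in U1, 8347 in U2 and 11081 in U3, and 15078, 12116 and 12200 in T1, T2 and T3. A scaled read is the deposited unit, in which the libraries were brought to a like total. The 2 groups did not overlap in the sum, and the mean sum was 1.36 times as high in treated skin. Within the groups the libraries kept an order: U3 was the highest untreated library for 38 genes and U2 the lowest for 33, while T1 was the highest treated library for 35. Every treated value lay above every untreated value for 28 of the 39 genes, against 21.7% of all genes tested. In whole skin, more cells of a dividing type and more RNA per cell cannot be told apart.

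How many of the 39 genes passed the threshold depended on single libraries. Without U1, 1 gene was called higher (4.35% of all genes tested), without U2 2 genes (4.83%), without T1 2 genes (5.51%) and without T2 3 genes (3.84%). Without U3, 22 genes were called higher (8.23%), and without T3 15 genes (8.94%). Pole, the large subunit of the leading-strand polymerase, was called in each of these 6 fits. With the quasi-likelihood test of edgeR on the recovered reads 12 genes were called higher (8.04% of all genes tested), with DESeq2 16 (8.03%), and 16 in the authors' deposited table (7.26%). With no trend of the spread on expression, 3 genes were called higher (5.94%), with limma-voom 11 (6.83%), over the 4 libraries of like depth 12 (8.56%), and at an adjusted p under 0.01 1 (2.33%). Of the 18 genes, Slbp (adjusted p = 0.0676), Tk1 (0.0829) and Pola1 (0.0623) were not called with DESeq2, nor in the authors' deposited table. With edgeR, Mcm2, Mcm5, Orc1, Pola1, Exo1 and Tk1 were not called, at adjusted p-values between 0.0502 and 0.0625. The direction of the fold change held in all of these fits for the 18 genes called.

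**Figure D1:**
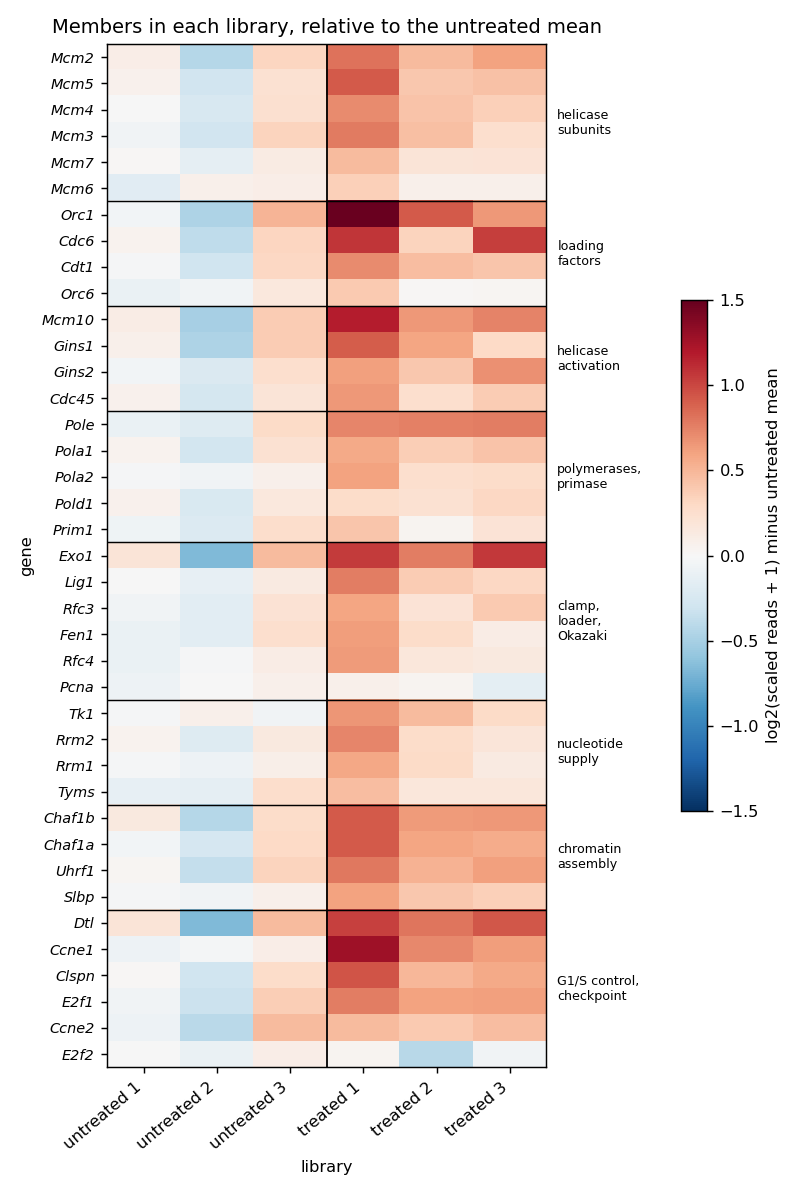
Each row is 1 of the 39 genes, grouped by role, and each column 1 library; the colour is log2(scaled reads + 1) minus the mean of the 3 untreated libraries. The treated columns are red for most genes, most strongly T1, and untreated replicate 2 is the bluest column.

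The promoters of 33 of the 39 genes were matched by symbol in a RefSeq table of mouse promoters (GRCm38.p6), which covers 250 bases before to 50 bases after each annotated start. An E2F-type sequence was written as TTTCGCGC, TTTGGCGC, TTTCCCGC or TTTGCCGC on either strand. A gene counted where any of its promoters held a match. The sequence was present in 15 of the 33 (45.5%), in 4.2% of the 12156 tested genes with a promoter entry and in 2.6% of the 27025 gene symbols of the table. It was in 7 of the 15 matched genes called higher and in 8 of the 18 not called. For Lig1 and Uhrf1, called higher, and Cdc6 and Mcm7, not called, matches lay only at starts other than that of the transcript in the deposited table. The letters CCAAT on either strand were in 21 of 33 (63.6%), against 42.0% of the genes tested and 41.1% of the table. The letters TTTGAA on either strand, part of the element of late cell cycle genes, were in 4 of 33 (12.1%), against 14.8% of the genes tested and 20.2% of the table. Of 21 matched promoters of mitosis and G2/M genes, 15 held TTTGAA, 18 held CCAAT and 1 held an E2F-type sequence. A match describes the letters and not a bound site.

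Stretches just before the annotated start are printed for 4 genes that rose (Mcm5, Orc1, Dtl and Pola1) and for Mcm6, which did not pass the test although its stretch holds 3 matches. They read 5′ to 3′ on the strand of the gene, and capitals mark the E2F-type sequences, which overlap in Mcm5 and in the first run of Mcm6. The stretches are chr8:75109339-75109508 on the plus strand for Mcm5, chr1:128359706-128359875 on the minus strand for Mcm6, chrX:93632156-93632325 on the minus strand for Pola1, chr1:191575545-191575634 on the minus strand for Dtl and chr4:108579416-108579445 on the plus strand for Orc1. The Orc1 stretch overlaps an exon of another annotated Orc1 transcript by 23 bases, and the other 4 stretches touch no annotated exon.
Mcm5: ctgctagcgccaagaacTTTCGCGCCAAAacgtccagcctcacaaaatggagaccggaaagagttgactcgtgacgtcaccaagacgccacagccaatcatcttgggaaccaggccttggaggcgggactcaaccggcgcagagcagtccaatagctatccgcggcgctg
Mcm6: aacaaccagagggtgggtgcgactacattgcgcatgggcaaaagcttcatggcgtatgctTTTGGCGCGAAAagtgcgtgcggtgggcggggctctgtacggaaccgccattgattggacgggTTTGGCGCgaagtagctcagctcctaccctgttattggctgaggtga
Pola1: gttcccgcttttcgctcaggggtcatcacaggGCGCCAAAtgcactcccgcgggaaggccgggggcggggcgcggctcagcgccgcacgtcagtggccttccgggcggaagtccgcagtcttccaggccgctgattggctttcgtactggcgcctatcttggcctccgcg
Dtl: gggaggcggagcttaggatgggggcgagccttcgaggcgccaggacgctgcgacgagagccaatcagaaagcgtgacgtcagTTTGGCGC
Orc1: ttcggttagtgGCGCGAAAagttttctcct

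Of the 6 helicase subunits 3 were called higher, and all 6 fold changes were positive. Mcm2, a subunit of the ring-shaped helicase, measured 389, 270.2 and 454 scaled reads in U1 to U3 and 641, 504 and 552 in T1 to T3. Its 3 treated values all lay above the untreated ones, U2 being lowest and T1 highest (log2 fold change 0.63 ± 0.18 SE, adjusted p = 0.0431). Mcm5 measured 426, 333 and 479 scaled reads in U1 to U3 and 771, 541 and 552 in T1 to T3, and T1 stood well above T2 and T3, which were alike (log2 fold change 0.58 ± 0.17 SE, adjusted p = 0.045). Mcm4 measured 464, 394 and 549.9 scaled reads in U1 to U3 and 763, 625 and 595 in T1 to T3, again with no overlap (log2 fold change 0.50 ± 0.14 SE, adjusted p = 0.0392). For Mcm3 the groups overlapped, since T3 (437) lay under U3 (465), and the gene was not called (log2 fold change 0.49 ± 0.18 SE, adjusted p = 0.0903). Mcm7 did not overlap but was not called (log2 fold change 0.30 ± 0.11 SE, adjusted p = 0.103). Mcm6 measured 582, 689.6 and 701 scaled reads in U1 to U3 and 842, 690.5 and 692 in T1 to T3; T2 and T3 lay at the level of U2 and U3, and the fold change was the smallest of the 6 (log2 fold change 0.17 ± 0.11 SE, adjusted p = 0.317).

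Per kilobase of transcript, the RNAs of the 6 subunits had like levels. Their proteins form 1 ring with 1 copy of each, but RNA levels do not measure protein. In untreated skin the mean level ran from 111 ± 27.9 scaled reads per kilobase for Mcm2 to 149 ± 14.8 scaled reads per kilobase for Mcm6 (SD, n = 3), a ratio of 1.35 between the highest and the lowest. In treated skin it ran from 165 ± 18.8 scaled reads per kilobase for Mcm7 to 185 ± 25.1 scaled reads per kilobase for Mcm4, a ratio of 1.12. Mcm6 was the highest of the 6 in untreated skin and Mcm2 the lowest. The SDs of neighbours in this order overlapped, so the order itself is not resolved. Such levels were not particular to the ring, since the untreated means of Rfc3 (118), Tk1 (124) and Orc6 (125) lay in the same range.

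Among the 4 loading factors, which place the helicase on origins, 1 was called higher and all 4 fold changes were positive. Orc1 measured 53.8, 39.9 and 79.5 scaled reads in U1 to U3 and 157, 106 and 87.4 in T1 to T3, so that T1 stood far above T2 and T3 and the treated and untreated values did not overlap (log2 fold change 1.02 ± 0.30 SE, adjusted p = 0.0474). Cdc6, the ATPase that helps to open the helicase ring, measured 94.5, 69.5 and 114 scaled reads in U1 to U3 and 192, 114 and 187 in T1 to T3. T1 and T3 were high and T2 lay just above U3, and Cdc6 was not called (log2 fold change 0.81 ± 0.25 SE, adjusted p = 0.0557), although DESeq2 and the authors' deposited table called it higher. Cdt1, the partner of Cdc6 in loading, did not overlap between groups and was not called (log2 fold change 0.53 ± 0.17 SE, adjusted p = 0.0627). Orc6, the smallest subunit of the origin recognition complex, measured 191, 197 and 228 scaled reads in U1 to U3 and 269, 207 and 208 in T1 to T3, and only T1 lay above all untreated libraries (log2 fold change 0.14 ± 0.14 SE, adjusted p = 0.533).

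Of the 4 factors that activate the loaded helicase, 1 was called. Mcm10 measured 125, 82.3 and 152 scaled reads in U1 to U3 and 265, 183 and 196 in T1 to T3, with U2 lowest, T1 highest and no overlap (log2 fold change 0.86 ± 0.24 SE, adjusted p = 0.0386). Gins1 and Gins2, subunits of the GINS complex that joins the helicase, had fold changes of 0.60 and 0.57 on the log2 scale and were not called (adjusted p = 0.136 and 0.0521). Gins2 did not overlap between groups, whereas for Gins1 T3 lay under U3. Cdc45, the third part of the active helicase, did not overlap and was not called (log2 fold change 0.43 ± 0.17 SE, adjusted p = 0.121).

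In the group of 5 polymerase and primase genes 2 were called. Pole measured 211, 197 and 276 scaled reads in U1 to U3 and 375, 380.1 and 384 in T1 to T3. The 3 treated values were nearly equal and all above U3, and this gene had the smallest adjusted p of the 39 (log2 fold change 0.75 ± 0.13 SE, adjusted p = 0.00879). Over 20 alternative settings its adjusted p ran from 0.00034 to 0.0363, and it passed the threshold in all 20. Pola1, the catalytic subunit of the polymerase that extends primers, measured 305, 243 and 345 scaled reads in U1 to U3 and 438, 382 and 396 in T1 to T3 and was called close to the threshold (log2 fold change 0.45 ± 0.13 SE, adjusted p = 0.0496), but not with edgeR or DESeq2. Its partner Pola2 did not overlap and was not called (log2 fold change 0.38 ± 0.12 SE, adjusted p = 0.0705). Pold1, the catalytic subunit of the lagging-strand polymerase, measured 258, 211 and 275 scaled reads in U1 to U3 and 299, 289 and 306 in T1 to T3, close together in treated skin and not called (log2 fold change 0.27 ± 0.12 SE, adjusted p = 0.161). Prim1, the primase subunit, overlapped between groups (log2 fold change 0.22 ± 0.15 SE, adjusted p = 0.353).

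The 6 genes of the clamp, its loader and the maturation of Okazaki fragments, the short pieces of the lagging strand, had fold changes from -0.01 to 0.96 on the log2 scale, and 2 were called. Exo1 measured 93.4, 51.5 and 114 scaled reads in U1 to U3 and 171, 139 and 172 in T1 to T3, with U2 lowest and T1 and T3 alike (log2 fold change 0.96 ± 0.27 SE, adjusted p = 0.043). Lig1, the ligase that seals the fragments, measured 334, 309 and 368 scaled reads in U1 to U3 and 573, 438 and 416 in T1 to T3 and did not overlap (log2 fold change 0.49 ± 0.13 SE, adjusted p = 0.0381). Fen1, the flap nuclease, and the loader subunits Rfc3 and Rfc4 had fold changes of 0.34, 0.39 and 0.31 on the log2 scale and were not called (adjusted p = 0.18, 0.122 and 0.233). Pcna measured 190.1, 199 and 211 scaled reads in U1 to U3 and 210.3, 206 and 181 in T1 to T3; the treated values lay within the untreated range or under it, with T3 lowest (log2 fold change -0.01 ± 0.12 SE, adjusted p = 0.961). Its fold change was slightly positive without U3 (0.03) and without T3 (0.06), and the adjusted p was between 0.78 and 0.972 in every setting tried. Pcna and Tyms have annotated pseudogenes (Pcna-ps1, Pcna-ps2 and Tyms-ps), and reads shared with such copies could be split or dropped, so both values are uncertain.

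Of the 4 genes that supply nucleotides 1 was called. Tk1, the thymidine kinase of dividing cells, measured 166, 178 and 162 scaled reads in U1 to U3 and 268, 235 and 205 in T1 to T3. Here U2 was the highest untreated library, unlike in the other 38 genes, and the groups did not overlap (log2 fold change 0.48 ± 0.13 SE, adjusted p = 0.039). Neither edgeR nor DESeq2 called Tk1. Rrm1 and Rrm2, the large and small subunits of ribonucleotide reductase, had T1 highest at 1113 and 602 scaled reads and T3 lowest at 818 and 410.0. Neither overlapped between the groups, and neither was called (log2 fold change 0.34 ± 0.11 SE, adjusted p = 0.0749 for Rrm1, log2 fold change 0.40 ± 0.15 SE, adjusted p = 0.11 for Rrm2). Tyms, the enzyme that makes thymidylate, overlapped, T2 and T3 lying under U3 (log2 fold change 0.27 ± 0.15 SE, adjusted p = 0.247).

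The group of chromatin assembly and copying of DNA methylation holds 4 genes, of which Slbp acts on histone mRNAs instead. All 4 were called higher with limma and edgeR, and 3 of them with DESeq2, which did not call Slbp. Chaf1a and Chaf1b encode subunits of the chromatin assembly factor that deposits histones behind the fork. Chaf1a measured 225, 194 and 286 scaled reads in U1 to U3 and 439.9, 351 and 343 in T1 to T3 (log2 fold change 0.69 ± 0.16 SE, adjusted p = 0.0217). Chaf1b measured 135, 90 and 148 scaled reads in U1 to U3 and 231, 189.5 and 192 in T1 to T3 (log2 fold change 0.73 ± 0.20 SE, adjusted p = 0.0352). In both, T1 was highest, T2 and T3 were alike and no treated value overlapped an untreated one. Uhrf1, which brings the maintenance methyltransferase to newly copied DNA, measured 354, 270.2 and 437 scaled reads in U1 to U3 and 599, 499 and 533 in T1 to T3 (log2 fold change 0.64 ± 0.16 SE, adjusted p = 0.0296). Slbp, the protein that binds the stem-loop of histone mRNAs, measured 193, 188 and 206 scaled reads in U1 to U3 and 297, 258 and 250.4 in T1 to T3; its untreated values were close together and the rise was smaller than in the other 3 genes (log2 fold change 0.45 ± 0.11 SE, adjusted p = 0.0288; adjusted p = 0.0676 with DESeq2).

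Among the 6 regulators of the G1/S transition and its checkpoint 4 were called. Ccne1, which encodes cyclin E1, measured 82.4, 84.9 and 93.2 scaled reads in U1 to U3 and 211, 144 and 134 in T1 to T3. The 3 untreated values were alike and all treated values lay well above them (log2 fold change 0.88 ± 0.19 SE, adjusted p = 0.0183), and Ccne1 was called in 18 of 20 alternative settings. Ccne2, encoding cyclin E2, measured 222, 176 and 324 scaled reads in U1 to U3 and 326, 307 and 322 in T1 to T3; U3 stood at the treated level and the gene was not called (log2 fold change 0.45 ± 0.19 SE, adjusted p = 0.153).

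E2f1, an activating E2F factor, measured 129.7, 107 and 174 scaled reads in U1 to U3 and 229.6, 204 and 205 in T1 to T3 and did not overlap (log2 fold change 0.66 ± 0.18 SE, adjusted p = 0.038). E2f2, an activating factor too, measured 394, 371 and 424 scaled reads in U1 to U3 and 407, 296 and 381 in T1 to T3; T2 was the lowest library and T1 lay inside the untreated range (log2 fold change -0.14 ± 0.13 SE, adjusted p = 0.491). Dtl, the ubiquitin ligase adaptor that removes Cdt1 in S phase, measured 181, 100.3 and 220.4 scaled reads in U1 to U3 and 326, 279 and 303 in T1 to T3. Its U2 value was the lowest by far and the treated values were alike (log2 fold change 0.92 ± 0.25 SE, adjusted p = 0.0379). Clspn, the checkpoint adaptor claspin, measured 187, 151 and 225 scaled reads in U1 to U3 and 356, 262 and 274 in T1 to T3, with no overlap (log2 fold change 0.67 ± 0.17 SE, adjusted p = 0.0322).

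**Figure D2:**
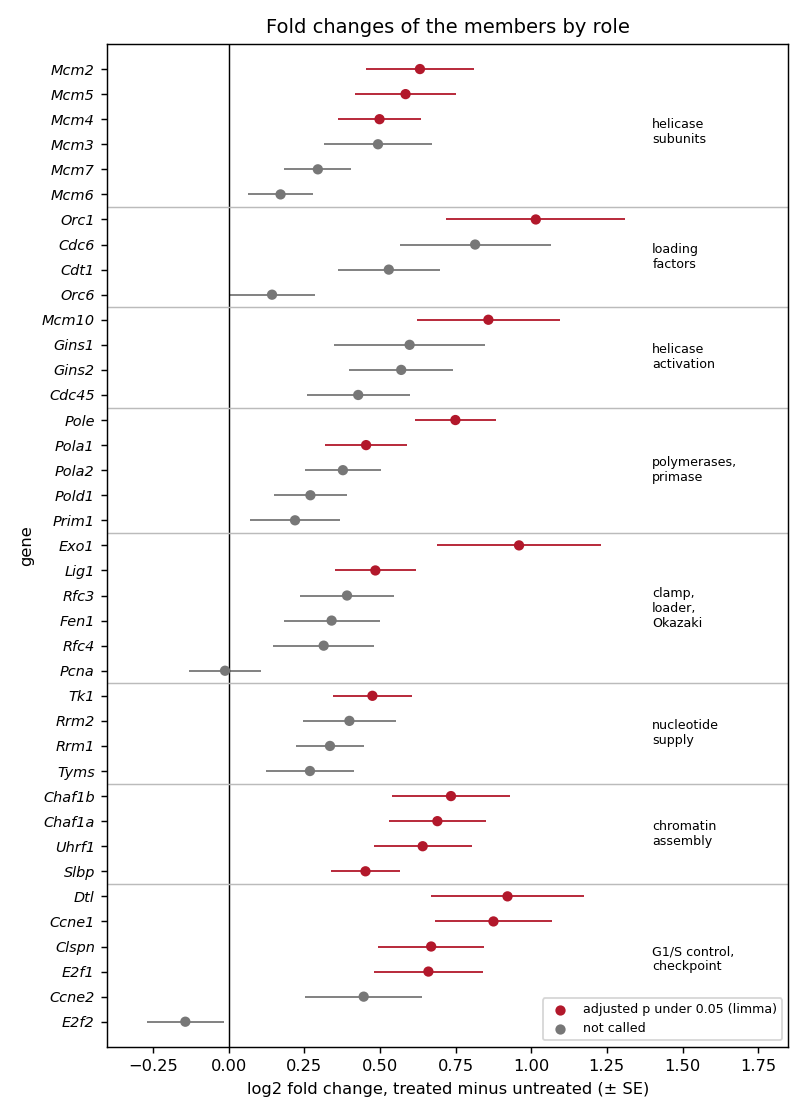
Points are log2 fold changes of the 39 genes, treated minus untreated, with the SE of limma as bars, grouped by role; red points passed an adjusted p of 0.05. All but Pcna and E2f2 lie to the right of 0, and the 4 genes of the group labelled chromatin assembly, which includes Slbp, are all red.

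The 39 genes differed more in level than in fold change. Per kilobase of transcript, the untreated level ran from 15.7 ± 5.78 scaled reads per kilobase for Exo1 to 187 ± 11 scaled reads per kilobase for Rrm1, a ratio of 11.9, and the ratio between the highest and the lowest gene was 8.12 in treated skin. Genes with low untreated levels had larger fold changes. In the 13 genes with the lowest untreated levels (15.7 to 65.5 scaled reads per kilobase) the median log2 fold change was 0.75 and 10 were called. In the middle 13 genes (71.5 to 110.7) the median was 0.49 and 5 were called, and in the 13 with the highest levels (110.7 to 187) it was 0.34 and 3 were called. Spearman's rho between the untreated level and the log2 fold change was -0.69 across the 39 genes. It is given as a description, since the same untreated values enter both quantities and genes are not independent replicates. Levels per kilobase rest on 1 transcript length per gene. For Cdc6 (19.1 scaled reads per kilobase, 4839 bases) and Tyms (57.0, 3801 bases), both among the lowest 13 genes, that length belongs to a record marked non-coding.

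**Figure D3:**
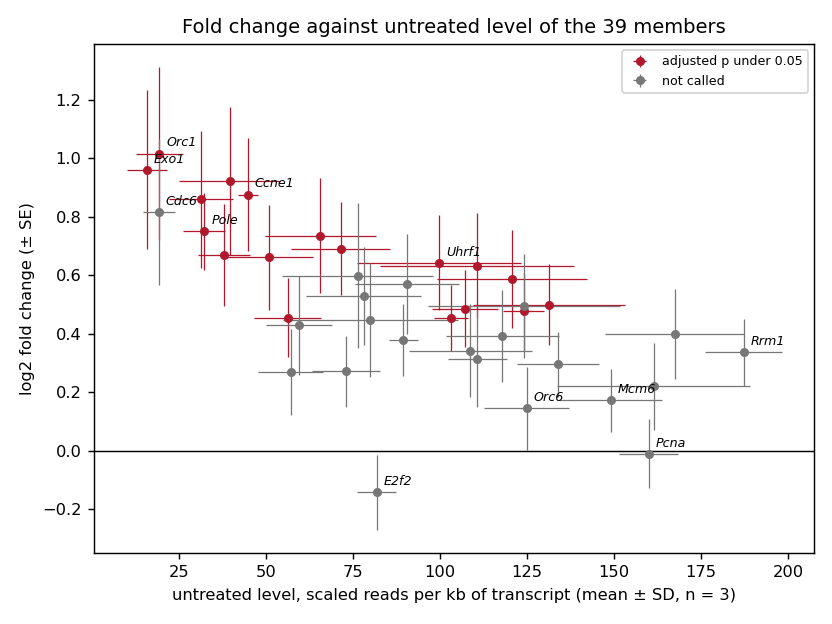
The x axis is the untreated level in scaled reads per kilobase of transcript (mean ± SD, n = 3) and the y axis the log2 fold change (± SE) of each of the 39 genes; red marks genes past an adjusted p of 0.05. Points fall from upper left, with Orc1 and Exo1, to lower right, with Rrm1 and Pcna.

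The rest of the pathway was read from lists chosen by function. The limma counts of each list stand beside 9.26% of all genes tested called higher and 7.23% called lower. Of 36 other replication factors 5 (13.9%) were called higher and 0 lower, with a median log2 fold change of 0.28. They were Dbf4, the activator of the Cdc7 kinase (0.75, adjusted p = 0.0089), Dna2, a nuclease (0.85, adjusted p = 0.0453), Ticrr (0.73, adjusted p = 0.0301) and Topbp1 (0.40, adjusted p = 0.0429), which act in firing origins, and Wdhd1 (0.65, adjusted p = 0.0468), which ties the primase to the fork. Dbf4 measured 213, 221 and 209 scaled reads in U1 to U3 and 442, 316 and 340.3 in T1 to T3, and all treated values lay well above the untreated ones. The origin subunits Orc2, Orc3, Orc4 and Orc5 had fold changes between 0.06 and 0.17 on the log2 scale and were not called, and Gmnn, the inhibitor of Cdt1, had one of 0.47 (adjusted p = 0.202). At an unadjusted p under 0.05, 16 of the 36 were higher and 0 lower, against 18.2% and 13.2% of all genes tested. With edgeR 2 were called higher (8.04% of all genes tested) and 0 lower. The count called higher was 1 without U1, U2 or T1 (4.35%, 4.83% and 5.51% of all genes tested). It was 2 without T2 (3.84%), 3 without T3 (8.94%) and 8 without U3 (8.23%).

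Of 22 cyclins, cyclin-dependent kinases, RB proteins, E2F factors and their regulators 5 were called higher and 0 lower, with a median of 0.19. Mycn, a Myc family transcription factor, measured 39.6, 52.8 and 52.3 scaled reads in U1 to U3 and 166, 133 and 248 in T1 to T3, the largest rise of these lists (log2 fold change 1.86 ± 0.25 SE, adjusted p = 0.00342). E2f7, a repressing E2F factor, measured 97.8, 64.3 and 81.8 scaled reads in U1 to U3 and 345, 244 and 187 in T1 to T3 (log2 fold change 1.63 ± 0.24 SE, adjusted p = 0.00487). In both, every treated value lay above every untreated value. Skp2, the F-box protein that targets p27 for destruction (0.73, adjusted p = 0.0315), Cdc25a, the phosphatase that activates cyclin-dependent kinases (0.44, adjusted p = 0.036), and Cdk2, the partner of cyclin E (0.35, adjusted p = 0.0303), were the other 3. Myc measured 464, 489 and 548 scaled reads in U1 to U3 and 491, 466 and 519 in T1 to T3 (log2 fold change -0.02 ± 0.09 SE, adjusted p = 0.903), with overlapping groups. Ccnd1, encoding cyclin D1, was not called (log2 fold change 0.25 ± 0.09 SE, adjusted p = 0.0854). The count of 5 was 2 without U1, U2 or T1 and 3 without T2, and DESeq2 and the authors' deposited table called 3 higher and 1 lower. With DESeq2 the lower one was E2f6, a repressing E2F factor (-0.41, adjusted p = 0.0382), and it was the 1 gene of the list called lower without U3 too. At an unadjusted p under 0.05, 9 of the 22 were higher and 1 lower, and edgeR called 0 lower.

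None of the 6 tested inhibitors of cyclin-dependent kinases was called in either direction by limma (0 higher and 0 lower), 2 had an unadjusted p under 0.05, and 5 of the 6 fold changes were negative, with a median of -0.14. Those 2 were Cdkn2b (-0.42, adjusted p = 0.0815) and Cdkn2c (-0.29, adjusted p = 0.0758), which hold back the kinases of cyclin D. Cdkn1a, encoding p21, had a fold change of -0.17 on the log2 scale (adjusted p = 0.206). The seventh, Cdkn2a, was too low to be tested. Without T3, Cdkn2c was called lower (-0.37, adjusted p = 0.0296), whereas edgeR and DESeq2 called 0 of the 6.

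Of 14 genes of the S phase checkpoint and repair 6 were called higher and 0 lower, with a median of 0.51. Fancd2 (0.95, adjusted p = 0.00526), Brca1 (1.05, adjusted p = 0.0103) and Brca2 (0.75, adjusted p = 0.0113), which protect and repair stalled forks, had the smallest p-values, followed by Wee1 (0.48, adjusted p = 0.0244), a kinase that restrains entry into mitosis. Brca1 measured 153, 116 and 187 scaled reads in U1 to U3 and 338, 253 and 346 in T1 to T3, with no overlap. At an unadjusted p under 0.05, 11 of the 14 were higher and 0 lower, and edgeR called 0 lower. The count called higher was 3 without U1, U2 or T2.

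Of 26 genes of mitosis and G2/M 12 were called higher and 0 lower, with a median log2 fold change of 0.51. Cenpe (1.09, adjusted p = 0.00368), Cenpf (0.67, adjusted p = 0.00438) and Bub1 (1.04, adjusted p = 0.00744), which act at the kinetochore, and Tpx2 (0.72, adjusted p = 0.00882), a spindle factor, had the smallest p-values. Mki67, the gene of the Ki-67 proliferation antigen, measured 1879, 1311 and 1732 scaled reads in U1 to U3 and 2647, 2362 and 2211 in T1 to T3, U2 being lowest and T1 highest as for most replication genes (log2 fold change 0.57 ± 0.13 SE, adjusted p = 0.0226). Cdk1, the mitotic kinase, and Ccna2, encoding cyclin A2, did not pass (0.43, adjusted p = 0.0621, and 0.32, adjusted p = 0.0974). At an unadjusted p under 0.05, 20 of the 26 were higher and 0 lower, and edgeR and DESeq2 called 0 lower. Whether the replication genes moved more or less than these lists was not tested.

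**Figure D4:**
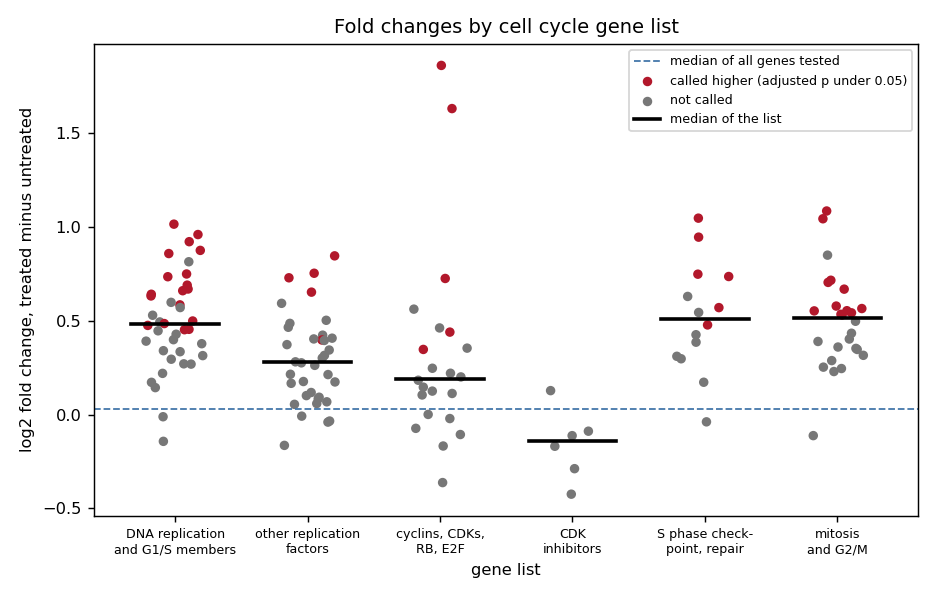
Points are the tested genes of each list by their log2 fold change, treated minus untreated; red points were called higher, black bars are list medians and the dashed line is the median of all genes tested (0.03). The DNA replication and G1/S members, the checkpoint genes and the mitosis genes have medians near 0.5. The other replication factors have a median of 0.28 and the cyclin list one of 0.19, and the inhibitors of cyclin-dependent kinases lie mostly under 0.

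Markers of several cell types differed between the groups as well. The labels give no collection day for untreated skin. Treatment and time since depilation therefore cannot be told apart, for these markers or for the replication genes. The list of hair markers joins the hair matrix, a site of cell division in the growing hair, with the inner root sheath. Of its 13 tested genes 8 were called higher and 1 lower (Gata3, -0.43, adjusted p = 0.0338). The 4 with the smallest p were Krt25 (6.90), Shh (3.85), Krt71 (4.48) and Krt73 (5.43), all log2 fold changes, of which Shh is a signal of the hair matrix and the others are inner root sheath keratins. The sum of all 14 listed hair markers was 1644 scaled reads in U1, 1588 in U2 and 1519 in U3, and 3483, 1900 and 6636 in T1, T2 and T3. Krt25 measured 1.1, 1.29 and 1.14 scaled reads in U1 to U3 and 331, 82.8 and 627 in T1 to T3, which is 1 read in each untreated library, and Krt72, too low to be tested, was at 0 in all 3 untreated libraries. Over the 3 untreated libraries Krt73 had 9 reads and Shh 14, so the size of these fold changes is uncertain. The hair markers were highest in T3, whereas the summed replication genes were highest in T1.

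Among 8 tested neutrophil markers 7 were called higher, led by Retnlg (4.50), Clec4d (3.49), Mmp8 (5.01) and Csf3r (3.29), the receptor for the neutrophil growth factor G-CSF, and the sum of the list ran from 728 to 943 in untreated skin and was 3966, 3336 and 1564 in T1, T2 and T3. Ly6g was at 0 in all 3 untreated libraries and too low to be tested. Retnlg and Mmp8 had 14 reads each over the 3 untreated libraries, so the size of their fold changes is uncertain. Of 10 macrophage markers 4 were called higher (Trem2, 2.47, Ly6c2, 2.41, Fcgr1, 1.22, and Cd68, 0.69), with sums of 3682 to 4929 in untreated and 5326 to 7452 in treated skin. Of 7 tested T and NK lymphocyte markers 4 were called higher (Cd8a, 2.63, Cd4, 2.39, Cd28, 1.99, and Icos, 1.98), with sums of 298 to 469 and 677 to 884. Cd8a too had only 14 reads over the untreated libraries. Cd3e and Cd3g, parts of the T cell receptor complex in all T cells, had negative fold changes (-0.49, adjusted p = 0.103, and -0.22, adjusted p = 0.404). All their treated values lay under all untreated ones, as for 2426 of all 15534 genes tested. The lowest untreated sum of each of these 3 immune lists was that of U2, and the highest that of U3, as for the replication genes. Fibroblast markers had the same untreated order (13323, 11952 and 14493 in U1, U2 and U3). Among treated libraries the neutrophil sum was highest in T1, as was the replication sum. The sum of basal keratinocyte markers was highest in T1 too (14186, 13342 and 11053 in T1, T2 and T3). So was that of wound keratins (4965, 4583 and 3278). The macrophage sum (7452) and the lymphocyte sum (884) were highest in T2.

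Basal keratinocyte markers, 8 of 8 tested, had sums of 13508 to 14122 in untreated and 11053 to 14186 in treated skin; 0 were called higher, and Krt15 (-0.45, adjusted p = 0.00862) and Col17a1 (-0.34, adjusted p = 0.0131) were lower. Of 4 wound keratins Krt6b was called higher (0.66, adjusted p = 0.0444), although T3 (755) lay under U1 (778). DESeq2 called Krt6b too (adjusted p = 0.00511), but edgeR did not (adjusted p = 0.057). The endothelial markers Vwf (0.70) and Emcn (0.46) were called higher out of 6, and the adipocyte markers Lep (-1.89), Plin1 (-0.70) and Adipoq (-0.46) lower out of 6. Emcn was not called with edgeR (adjusted p = 0.0569) or DESeq2 (adjusted p = 0.0965). Of 6 fibroblast markers 0 were called by limma in either direction, and 0 had an unadjusted p under 0.05. The part of these cell types in the rise of the replication genes was not tested.

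**Figure D5:**
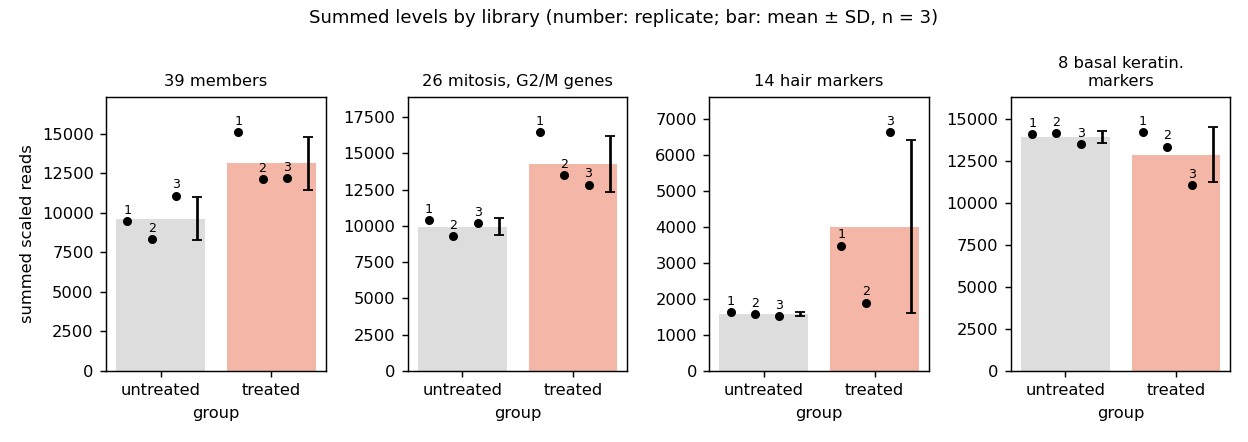
Bars are mean summed scaled reads of 4 gene lists in untreated and treated skin, with the SD at the right edge of each bar (n = 3), and numbered points are replicates. The replication and mitosis sums of T1, T2 and T3 all lie above the untreated sums, hair markers are highest in T3, and basal keratinocyte sums overlap.

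Libraries differed in depth and in the balance of short and long transcripts. Recovered reads ran from 4928245 in U2 to 7545567 in T3, and a single one of the 39 genes had between 31 and 984 reads in a library. In U2, genes with transcripts of up to 1000 bases lay above their mean over libraries by a median of 0.15 on the log2 scale and genes over 7000 bases lay under it by as much (-0.15). T3 showed the reverse, -0.13 and 0.17. Of the 19 replication genes with transcripts of up to 3000 bases 6 were called higher (median 0.43), and of the 20 longer ones 12 (median 0.54). With the trend on transcript length taken out of each library, an alternative chosen after seeing the data, 15 of the 39 were called higher (8.9% of all genes tested), and with the trend on reads per base taken out 9 were (7.96%).

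Some values may include reads of other genes, because the sources used here do not say whether strand was used in counting. Annotated exons of Fen1 share 78.8% of their bases with Gm10143 on the opposite strand, those of Gins2 67.3% with Gse1, and those of Chaf1a 52.5% with Ubxn6. The shared part was 17.4% for Ccne2 with Ints8, 12.7% for Rfc4 with Eif4a2 and 10.8% for Orc1 with Gm12743. For these genes the reads of both strands cannot be told apart if strand was not used. The call for Chaf1a is uncertain to that extent, and of Orc1 to a lesser one.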

How the data were processed

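The authors deposited 1 table of 17564 genes with 6 columns of scaled signal, here called scaled reads, which are whole reads times 1 factor per library. The deposited table also holds the authors' log2 fold change, their p-values and adjusted p-values, and a transcript length per gene. The submitters' processing notes name the build mm10 and the tools STAR, DESeq2 and bcl2fastq 2.20.0.422, and a stranded mRNA kit was used per the labels' protocols. The read counter is not given in the sources used here. Dividing each column by its smallest step gave whole reads for 100.0% of values (tolerance 0.1), 4928245 to 7545567 per library.

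Genes kept by filterByExpr of edgeR 4.0.16 (minimum count 10, minimum total 15), 15534 in all, entered a limma fit (version 3.58.1, R 4.3.3) of log2(scaled reads + 1) on group alone, in which the spread could follow expression. Its p-values were adjusted by Benjamini-Hochberg over all of them. A fold change on this scale understates the change of low genes. A gene was called at an adjusted p under 0.05. All 39 members passed the filter. Alternatives were edgeR's quasi-likelihood test, DESeq2 1.42.0, voom, other scalings, filters, pseudocounts and single libraries left out. The fit was also run on simulated data, in which libraries had no trend on transcript length. No result given here rests on that run.

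All 39 members are named. In other lists every called gene is named where up to 5 were called in a direction, otherwise the 4 with the smallest p, plus Mki67, Cdk1, Ccna2, Myc, Ccnd1, Cdkn1a, Gmnn and Krt25. Brief mentions outside this rule (Orc2 to Orc5, E2f6, Cdkn2a, Cdkn2b, Cdkn2c, Cd3e, Cd3g, Krt72, Ly6g) were chosen after their values were seen. The members, lists and tests were chosen with earlier results of these data known.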

Additional observations from a re-analysis of the deposited data

How the results depend on the processing

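Of the 39 genes, 11 were called higher with limma-voom, 3 with no trend in the spread, 9 with the trend on reads per base removed (7.96% of all genes tested) and 1 at an adjusted p under 0.01. The count was 12 with edgeR's quasi-likelihood test, 16 with DESeq2 and 12 over the 4 libraries of like depth. It ran from 1 to 22 with single libraries left out, and 0 were called lower throughout. The median log2 fold change of the 39 genes ran from 0.38 to 0.62 with single libraries left out. Over all genes, 922 were higher and 640 lower with no trend in the spread, and 362 and 288 at an adjusted p under 0.01. With single libraries left out, 597 to 1389 were higher and 518 to 1333 lower.

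Other replication factors called higher numbered 2 with TMM scaling (1278 of all 15534 genes tested) and 2 with edgeR's quasi-likelihood test (8.04% of all genes tested). They numbered 3 with limma-voom (6.83%), 1 with no trend in the spread (5.94%) and 2 with the trend on reads per base removed (7.96%). With the trend on transcript length removed they numbered 3 (8.9%) and at an adjusted p under 0.01 1 (2.33%). With single libraries left out they numbered 1 to 8 (3.84% to 8.94%). For cyclins, kinases, RB and E2F genes, 2 were higher and 1 lower over the 4 libraries of like depth, 3 and 1 with DESeq2, 3 and 1 in the authors' deposited table, 2 were higher with no trend in the spread and 2 at an adjusted p under 0.01, and 1 was lower with the trend on transcript length removed. Single libraries left out gave 2 to 5 higher and 0 to 1 lower. Of the inhibitors of cyclin-dependent kinases 1 was lower over the 4 libraries of like depth and 1 with the trend on reads per base removed, and 0 to 1 with single libraries left out. Of the checkpoint genes 1 was higher at an adjusted p under 0.01 and 3 to 8 with single libraries left out. Of the mitosis genes 20 were higher over the 4 libraries of like depth, 5 at an adjusted p under 0.01 and 9 to 17 with single libraries left out. The cause of these shifts was not tested, beyond the smaller number of libraries or the stricter threshold where that is the change.

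Pcna had a positive log2 fold change over the 4 libraries of like depth (0.054) and with the trend on transcript length removed (0.0094), and it ran from -0.053 (without T1) to 0.056 (without T3) with single libraries left out. Myc ran from -0.074 (without U1) to 0.046 (without U3).

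No pairing by replicate number was seen in the values. Deviations of same-numbered libraries from their group means had correlations of -0.09, -0.05 and 0.05, and those of unlike numbers ran from -0.10 to 0.15. With 3 libraries a group, such correlations cannot exclude a pairing. With the replicate number as a block, 17 of the 39 genes were called higher, with a median of 0.49, and 1348 genes were higher and 1096 lower over all genes.

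At 31 to 984 reads per gene and library and 3 libraries a group, which of the 39 genes passed the threshold changed with the setting, as given above. No fold change of the 18 genes called changed sign in the settings run. Pole was called in all 20.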
